A study of Mus musculus with 8 samples.

Results

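The small leucine-rich proteoglycans are secreted matrix proteins built from leucine-rich repeats, most of which carry sulfated sugar chains. They bind collagen fibrils and set how the fibrils assemble, and some of them bind growth factors or innate immune receptors. Fibroblasts are their main source in the heart. Members were taken from a list of names, and all 8 of 8 were found among the 38293 genes of the count table: decorin (Dcn), biglycan (Bgn), lumican (Lum), osteomodulin (Omd), osteoglycin (Ogn), fibromodulin (Fmod), Prelp and asporin (Aspn). All 8 passed the filter on low counts that left 13972 genes to test. Dcn, Lum, Ogn and Omd, which are treated here as members of resting fibroblasts, were also set against Bgn, which is known to be induced in injured and remodelling tissue.

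Left ventricles of C57BL/6J mice were studied 3 days after ischemia-reperfusion. The injury was made by tying and releasing the left anterior descending coronary artery. Mice of both groups had this injury, and both received UPy-PEG hydrogel, a supramolecular gel that serves as a drug depot, as 2 intramyocardial injections of 10 µl. In the antimiR-195 group (4 libraries) the gel held an inhibitor of the microRNA miR-195, and in the hydrogel group (4 libraries) it held no drug. No uninjured or gel-free ventricle is among the samples, and age and sex are not given in the labels. RNA came from the whole ventricle, so fewer cells of a type and less RNA per cell cannot be told apart.

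Gene counts totalled 16872968 to 22751753 per library. AntimiR-195 replicate 2 stood apart from the other libraries, with correlations of log2 CPM across genes of 0.944 to 0.970 and a median of 0.956, while the medians of the other 7 libraries lay between 0.985 and 0.990. Its share of alignment records marked as not unique was also the highest, at 47.8%, against 42.1% to 43.9% in the other antimiR-195 libraries and 42.4% to 44.5% in hydrogel libraries. The ventricle's own markers were abundant: 8 cardiomyocyte genes summed to 62318 to 73557 CPM in antimiR-195 libraries and 59676 to 70911 CPM in hydrogel libraries. The 14 fibroblast identity genes summed to 1720 to 1975 CPM in antimiR-195 libraries and 1714 to 2245 CPM in hydrogel libraries. CPM are counts scaled to a common size of library after normalization. Of 8 tendon, valve and cartilage genes, the defining tendon gene Tnmd and cartilage gene Col2a1 had 0 to 1 counts and Acan 0 to 8, while Scx, Sox9 and Comp passed the count filter.

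Most member genes sit in clusters with relatives. In GRCm38, Aspn (chromosome 13, 49544443 to 49567565), Omd (49582462 to 49592822) and Ogn (49608046 to 49624501) follow each other on the plus strand, after Ecm2. Dcn (chromosome 10, 97479609 to 97518143) and Lum (97565128 to 97572703) are followed by Kera and Epyc. Prelp (133910304 to 133921414, minus strand) and Fmod (134037254 to 134048277, plus strand) lie on chromosome 1, and Bgn on chromosome X at 73483602 to 73495933. The chromosome 13 members lie inside Cenpp, a kinetochore gene on the opposite strand with 34 to 65 counts per library. Exons of Cenpp share 0 bases with those of Omd and Ogn and 7 with those of Aspn. Prelp overlaps an antisense gene, Gm15851, over 350 bases, with 0 to 2 counts per library.

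The drug acts on miR-195, which pairs through its seed (bases 2 to 8, in capitals) with sites in 3′ untranslated regions. The mature sequence is shown with that of miR-16, the best known relative with the same seed, and below them the 2 sites that the members hold, written as DNA with the site in capitals. The miRNAs are from RefSeq (GRCm38.p6), and the sites from GENCODE M21 transcripts.
mmu-miR-195a-5p: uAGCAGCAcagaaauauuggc
mmu-miR-16-5p: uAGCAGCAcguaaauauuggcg
Bgn, chrX:73495884-73495890, plus strand: gcaagagggagTGCTGCTtatgaggtcagt
Prelp, chr1:133910715-133910721, minus strand: cagctcctgtgGCTGCTAgggatgggggca

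The Bgn site matches bases 2 to 8 of the miRNA and starts at base 1088 of a 3′ untranslated region of 1137 bases. The Prelp site matches bases 2 to 7 followed by an A, at base 1885 of 2302. No site of at least 7 bases was found in the longest annotated 3′ untranslated region of Dcn, Lum, Omd, Ogn, Fmod or Aspn, which ran from 435 to 1652 bases. Of 12874 tested genes with such a region, 28.5% held a site, so 2 of 8 is near the share over all genes. A match to the seed is a description of the letters and not evidence of binding.

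Per length, Dcn was the most abundant member and Omd and Fmod the least. In RPKM, reads scaled to gene length and to the size of the library as the authors deposited them, Dcn averaged 316 ± 12.3 in antimiR-195 libraries and 336 ± 26.1 in hydrogel libraries (SD, n = 4 each), above 99.3% of all genes with a value above 0. Bgn averaged 163 ± 12.5 RPKM in antimiR-195 and 154 ± 39.0 RPKM in hydrogel libraries. Lum (52.0 ± 5.84 against 54.8 ± 5.93 RPKM) and Ogn (50.6 ± 8.71 against 52.5 ± 7.59 RPKM) lay close together, and Lum was the higher in 4 of 8 libraries. Aspn averaged 31.3 ± 5.42 against 27.5 ± 6.93 RPKM and Prelp 13.4 ± 2.02 against 14.2 ± 1.65 RPKM. Fmod, at 0.884 ± 0.308 against 0.725 ± 0.414 RPKM, and Omd, at 0.543 ± 0.149 against 0.932 ± 0.136 RPKM, traded places, with Fmod higher in 4 of 8 libraries. All other neighbours in this order kept it in 8 of 8 libraries, though Ogn exceeded Aspn by only 1.03-fold in the library where they were closest. Dcn made up 46.0% to 59.5% of the summed RPKM of the members and Bgn 18.1% to 29.0%.

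Decorin, whose core protein binds collagen fibrils and transforming growth factor beta, had similar levels in both groups. Its values were 646, 603, 693 and 669 CPM in antimiR-195 replicates 1 to 4, against 657, 696, 819.8 and 666 CPM in hydrogel replicates 1 to 4. The groups overlapped, and the highest value, that of hydrogel replicate 3, stood well above the rest. Dcn averaged 653 ± 38.3 CPM with antimiR-195 and 709.5 ± 75.4 CPM with hydrogel (SD, n = 4 each), a log2 fold change of -0.12 ± 0.12 (SE). Here and below, fold changes are antimiR-195 over hydrogel, fitted with edgeR's quasi-likelihood test. The 95% interval of that difference ran from 0.761 to 1.11-fold, and without hydrogel replicate 3 the log2 fold change was -0.04 ± 0.12. No gene of the whole table passed the adjusted threshold of 0.05 (0 of 13972, or 0%), and each member had an adjusted p of 0.9999. Before adjustment, 175 genes (1.25%) had a p below 0.05, 61 of them (0.437%) lower and 114 (0.816%) higher with antimiR-195.

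Lumican, which regulates the thickness and spacing of collagen fibrils, was as even as Dcn. It measured 99.4, 90.9, 117 and 121 CPM in antimiR-195 libraries and 99.9, 112, 122 and 126 CPM in hydrogel libraries, a log2 fold change of -0.10 ± 0.13. The ranges of the groups lay almost on top of each other. Osteoglycin, also called mimecan, another regulator of collagen fibrils, measured 122, 95.4, 149 and 145 CPM against 116, 142, 126 and 154 CPM, a log2 fold change of -0.08 ± 0.16. The lowest value was that of antimiR-195 replicate 2, and without it the sign of the Ogn difference turned, to 0.03 ± 0.12. Prelp, which anchors basement membranes to collagen, measured 39.7, 43.0, 57.3 and 52.6 CPM against 45.2, 59.8, 50.04 and 52.5 CPM, a log2 fold change of -0.11 ± 0.14. None of these 3 genes differed by more than the spread between libraries. Their 95% intervals ran from 0.764 to 1.14-fold for Lum, 0.743 to 1.21-fold for Ogn and 0.745 to 1.16-fold for Prelp. Such an interval gives the differences compatible with these data and is not a limit of detection. The log2 fold change of Lum was -0.04 ± 0.11 without antimiR-195 replicate 2, -0.17 ± 0.14 without either hydrogel replicate 1 or antimiR-195 replicate 4 and -0.06 ± 0.15 without hydrogel replicate 4. That of Prelp was -0.03 ± 0.15 without antimiR-195 replicate 1, -0.03 ± 0.16 without hydrogel replicate 2, -0.18 ± 0.16 without hydrogel replicate 1, and -0.07 ± 0.14 or -0.20 ± 0.14 when antimiR-195 replicate 2 or 3 was left out.

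Omd was the 1 member whose groups did not overlap. Osteomodulin is a keratan sulfate proteoglycan best known from bone, where it binds hydroxyapatite. It measured 1.12, 0.602, 0.718 and 0.911 CPM in antimiR-195 replicates 1 to 4, against 1.75, 1.32, 1.52 and 1.28 CPM in hydrogel replicates 1 to 4. Every antimiR-195 library was below every hydrogel library, with antimiR-195 replicate 1 and hydrogel replicate 4 nearest to each other. Omd averaged 0.838 ± 0.228 CPM with antimiR-195 and 1.47 ± 0.215 CPM with hydrogel (SD, n = 4 each), a log2 fold change of -0.81 ± 0.27. In edgeR the unadjusted p was 0.0117, at rank 18 of all genes, and the adjusted p 0.9999, so the difference did not pass. Over all genes, 1.07% had groups without overlap, and 0.544% had them with antimiR-195 on the lower side. Among the members these were 1 of 8. The values rest on few reads, 11 to 33 counts per library and 59 in antimiR-195 libraries against 116 in hydrogel libraries in all. Cenpp, on the opposite strand, has 34 to 65 counts per library, and its exons share 0 bases with those of Omd. Whether the counting used strand is not given in the labels. If it did not, Cenpp reads from outside its own exons could not be told apart where they fall on Omd exons. Leaving out single libraries gave log2 fold changes from -0.98 to -0.68, all of the same sign.

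**Figure D1:**
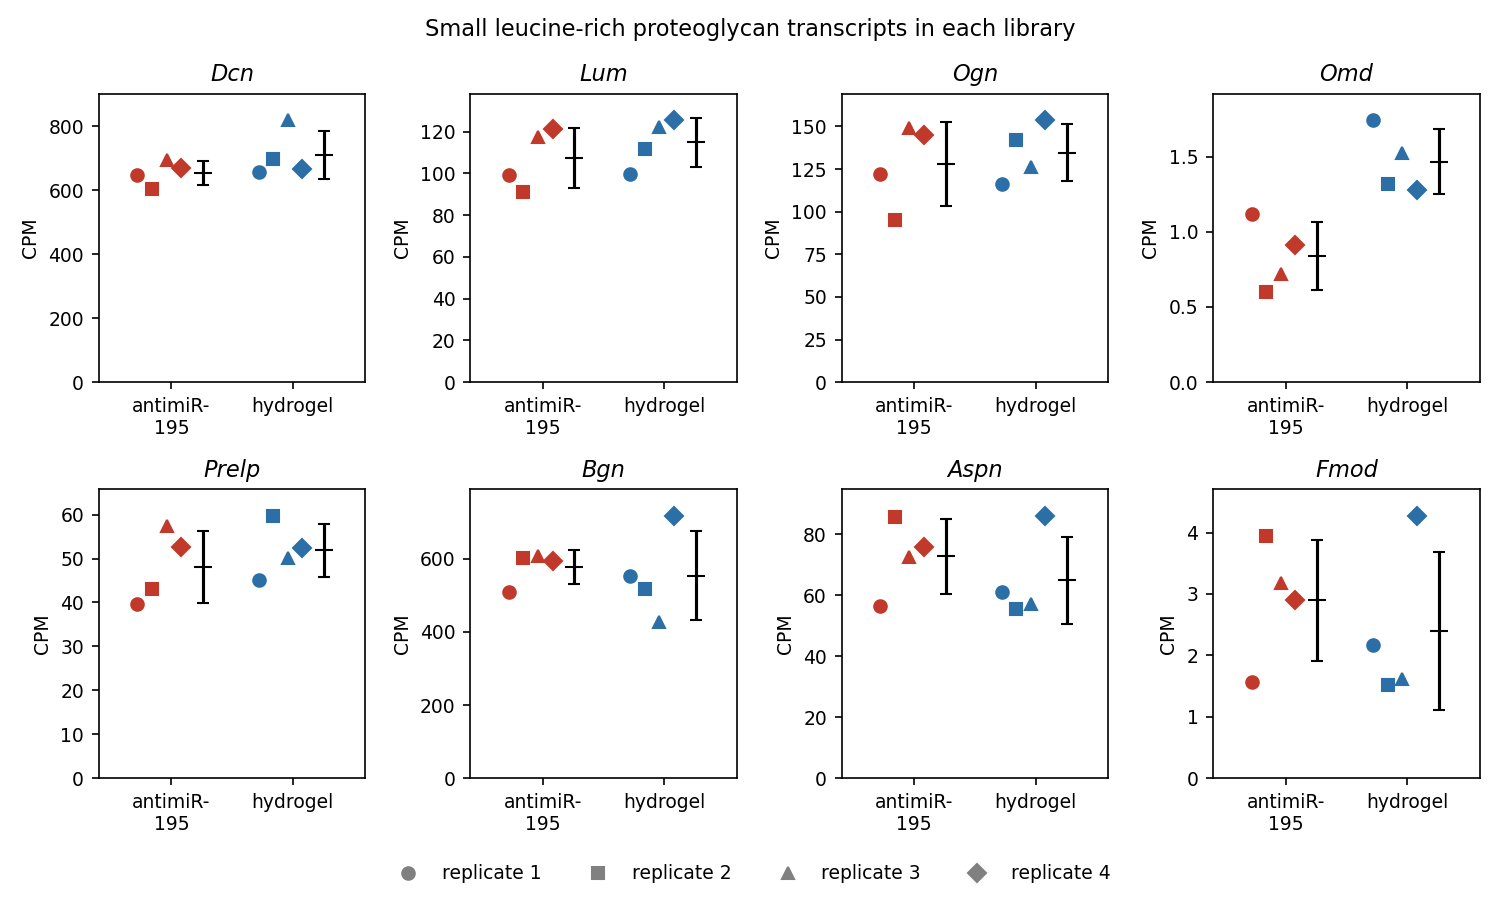
Normalized counts (CPM, y axis from 0) of the 8 transcripts in each library, antimiR-195 in red and hydrogel in blue, with a symbol shape for each replicate and the mean ± SD (n = 4) in black. In Omd all 4 antimiR-195 values (0.602 to 1.12 CPM) lie below all 4 hydrogel values (1.28 to 1.75 CPM), and in the other 7 genes the groups overlap.

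Biglycan, a collagen binder whose soluble form can signal through toll-like receptors, spread far more among hydrogel libraries than between the groups. It measured 508, 602, 606 and 593 CPM in antimiR-195 libraries, against 552, 516, 427 and 717 CPM in hydrogel libraries. Both the lowest and the highest value of all 8 libraries belonged to the hydrogel group, in replicates 3 and 4. Bgn averaged 577 ± 46.5 CPM with antimiR-195 and 553 ± 122 CPM with hydrogel (SD, n = 4 each), a log2 fold change of 0.06 ± 0.16. The sign turned without hydrogel replicate 3, to -0.04 ± 0.16.

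Asporin and fibromodulin were, like Bgn, Lum and Ogn, highest in hydrogel replicate 4. Asporin, which has a run of aspartate residues and can bind transforming growth factor beta, measured 56.4, 85.7, 72.7 and 75.9 CPM in antimiR-195 libraries and 61.0, 55.4, 57.2 and 86.0 CPM in hydrogel libraries. Its log2 fold change was 0.16 ± 0.17. Fibromodulin, which guides collagen fibril growth and cross-linking, measured 1.57, 3.94, 3.17 and 2.90 CPM against 2.17, 1.52, 1.62 and 4.27 CPM, a log2 fold change of 0.29 ± 0.37. In both genes antimiR-195 replicate 2 came next to that library, and the groups overlapped. Their differences turned on single libraries: Fmod was at 0.71 ± 0.32 without hydrogel replicate 4 and at 0.09 ± 0.37 without antimiR-195 replicate 2, and Aspn at 0.33 ± 0.15 and 0.07 ± 0.16. Fmod had 28 to 77 counts per library, and its 95% interval ran from 0.687 to 2.16-fold.

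Across the 8 libraries, only Omd among the members had a profile that separated the treatments. For each gene log2 CPM was centred on its own mean, and likeness was the root mean square difference between centred profiles, in log2 units, where 0 would be the same profile. Of the 28 pairs, Lum and Ogn were the most alike at 0.11, followed by Dcn and Lum at 0.12, Lum and Prelp at 0.13, and Bgn and Aspn at 0.13. Bgn and Dcn lay 0.30 apart and Bgn and Lum 0.25. Omd and Fmod, both at low counts, were the least alike at 0.89. The distance depends on the size of the swings as well as on their shape. Dcn, whose own root mean square about its mean was 0.12, was about as far from Lum as from a flat profile. Fmod and Aspn were both highest in hydrogel replicate 4 and next in antimiR-195 replicate 2. They lay 0.30 apart, with wider swings in Fmod (0.55 against 0.25). These distances describe 8 shared libraries and grow with counting noise, so they were not tested.

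**Figure D2:**
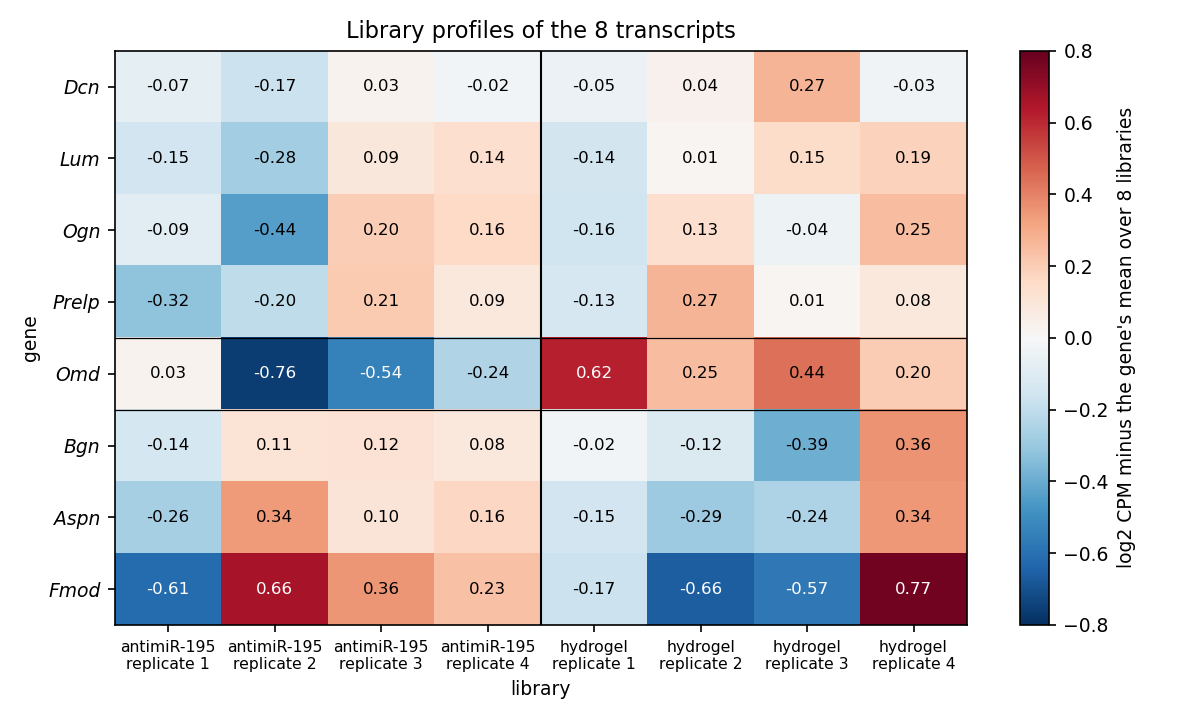
Centred log2 CPM (log2 CPM minus the gene's mean over the 8 libraries, colour and number) of each transcript in each library, antimiR-195 left of the line and hydrogel right of it. Dcn, Lum, Ogn and Omd are lowest in antimiR-195 replicate 2, and Bgn, Aspn, Fmod, Lum and Ogn are highest in hydrogel replicate 4, at 0.36, 0.34, 0.77, 0.19 and 0.25.

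Hydrogel replicates 3 and 4 lay at opposite ends for Bgn. Replicate 3 had the highest Dcn and the lowest Bgn of all libraries, replicate 4 the highest Bgn, and the total of the members was highest in replicate 4, at 1807 CPM against 1475 to 1700 in antimiR-195 libraries and 1535 to 1606 in the other hydrogel libraries. The 14 activated fibroblast genes (Postn, Spp1, Acta2, Tnc and others) summed to 1726, 2755, 1601 and 1463 CPM in antimiR-195 replicates 1 to 4. In hydrogel replicates 1 to 4 the sums were 1555, 1307, 1015 and 1882 CPM, lowest in replicate 3. The highest means of that list, antimiR-195 against hydrogel (SD, n = 4 each), were those of Postn, Spp1 and Acta2. Postn measured 509 ± 106 against 406 ± 135 CPM, Spp1 387 ± 141 against 325 ± 78.4 CPM and Acta2 292 ± 147 against 203 ± 34.0 CPM. The groups overlapped in each of these genes. Which cells these transcripts came from was not tested. The 14 identity genes had their highest sum, 2245 CPM, in hydrogel replicate 3. Gsn alone ranged from 844 to 1320 CPM among hydrogel libraries, a large part of the identity sum. The identity sum of hydrogel replicate 4, 2025 CPM, was the next highest, so that list did not set these 2 libraries apart. The 13 binding partners, mostly fibrillar and beaded collagens, were also lowest in hydrogel replicate 3, at 3929 CPM. Their sums were 8216 CPM in hydrogel replicate 4 and 8417 CPM in antimiR-195 replicate 2. The part of these sums in the member values was not tested.

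Genes with the most similar profiles over the 8 libraries, named by the same distance among 13173 other genes, were Ube2d1 (0.04), Ugp2 (0.04) and Pdhx (0.05) for Dcn. They were Crebl2, Asb10 and Zfp809 for Lum (0.04 to 0.05), Reep3, Srp72 and Sbf1 for Ogn (0.03 to 0.04), and Hist2h2be, Atxn2 and Ttc17 for Prelp (0.06). For Bgn they were Sertad4, Nckap1l and Myo9b (0.07), and for Aspn Tnfrsf1b, Mboat1 and Tmem119 (0.10). Omd had Tmem100, Thap1 and Plekhb1 nearest (0.23) and Fmod Acr, Oas3 and Itga2b (0.20 to 0.24). These distances describe the same 8 libraries and were not tested.

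Ratios to Bgn show how the resting fibroblast members stood against the injury-associated one within each library. Per length (RPKM), Dcn over Bgn was 2.17, 1.71, 1.95 and 1.93 in antimiR-195 replicates 1 to 4, against 2.03, 2.31, 3.28 and 1.59 in hydrogel replicates 1 to 4. The hydrogel values enclosed all 4 antimiR-195 values. Lum over Bgn ranged from 0.259 to 0.351 in antimiR-195 and from 0.301 to 0.492 in hydrogel libraries. Ogn over Bgn was 0.336, 0.222, 0.344 and 0.343 against 0.295, 0.387, 0.415 and 0.301, with antimiR-195 replicate 2 alone at the low end. Omd over Bgn was 0.00505, 0.00229, 0.00271 and 0.00352 in antimiR-195 libraries, against 0.00724, 0.00586, 0.00817 and 0.00407 in hydrogel libraries, where hydrogel replicate 4 reached into the antimiR-195 range. Without dividing by Bgn the Omd groups did not overlap.

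**Figure D3:**
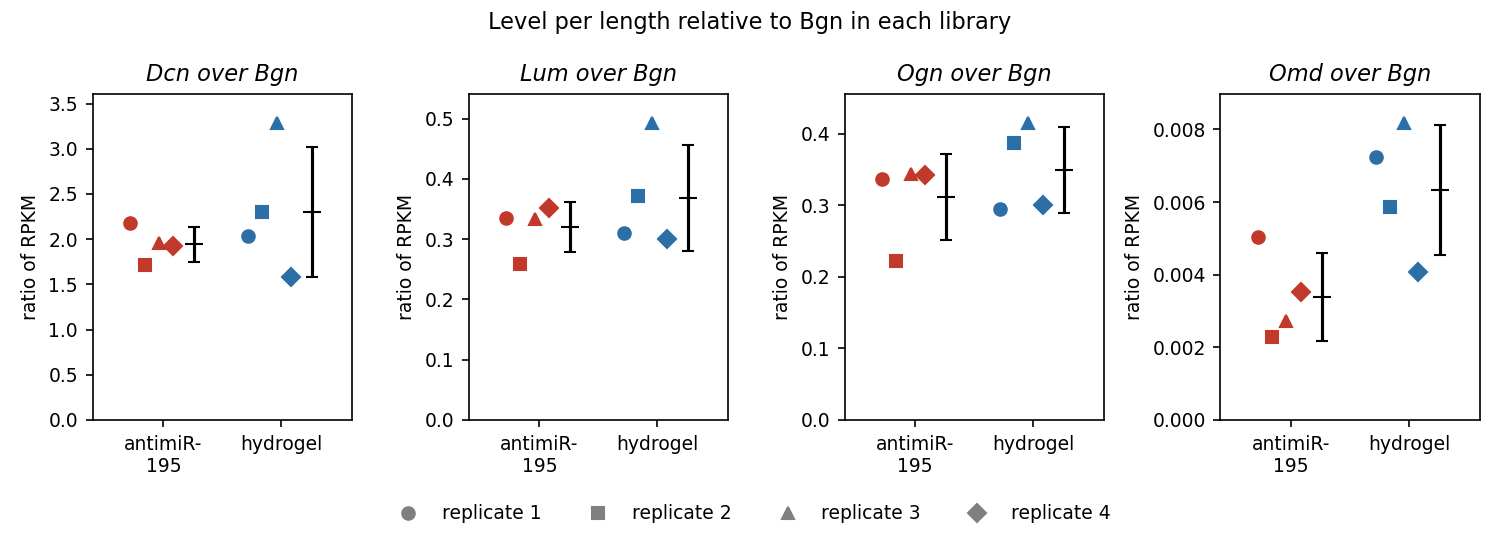
Ratio of the deposited RPKM of Dcn, Lum, Ogn and Omd to that of Bgn in each library (y axis from 0), antimiR-195 in red and hydrogel in blue, with the mean ± SD (n = 4) in black. The groups overlap in each panel, and hydrogel replicate 3 has the highest ratio in each.

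Tested over all genes, the difference between a gene's change and that of Bgn passed for none of 13971 genes (0%) in limma on log2 CPM ratios, with 95 genes (0.680%) at an unadjusted p below 0.05. Dcn had a log2 difference from Bgn of -0.20 ± 0.27 (95% interval -0.76 to 0.36), Lum of -0.19 ± 0.24 (-0.68 to 0.30) and Ogn of -0.17 ± 0.24 (-0.67 to 0.32). Omd had -0.84 ± 0.36 (-1.56 to -0.12), with an unadjusted p of 0.0242 in limma. That p was 0.0734 without hydrogel replicate 1, 0.0757 without hydrogel replicate 3, and 0.0576 or 0.0582 when antimiR-195 replicate 2 or 3 was left out of the limma fit. In that limma fit each had an adjusted p of 1 after rounding. Prelp lay at -0.20 ± 0.23, on the same side as the resting fibroblast members, while Aspn at 0.09 ± 0.23 and Fmod at 0.23 ± 0.30 lay on the other. The ratio of the summed RPKM of Dcn, Lum, Ogn and Omd to Bgn averaged 2.58 ± 0.275 in antimiR-195 and 3.03 ± 0.859 in hydrogel libraries (SD, n = 4 each), and Dcn over Bgn alone averaged 1.94 and 2.30 in those groups. The group difference of its log2, -0.20, shrank to -0.03 without hydrogel replicate 3. All these ratios share the values of Bgn, so its spread among hydrogel libraries enters each of them. The limma fit draws its variance from all genes together, and each gene here carries the same Bgn values. Its intervals may therefore be too narrow and its p-values too small, and the interval of Omd relative to Bgn may not exclude 0.

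**Figure D4:**
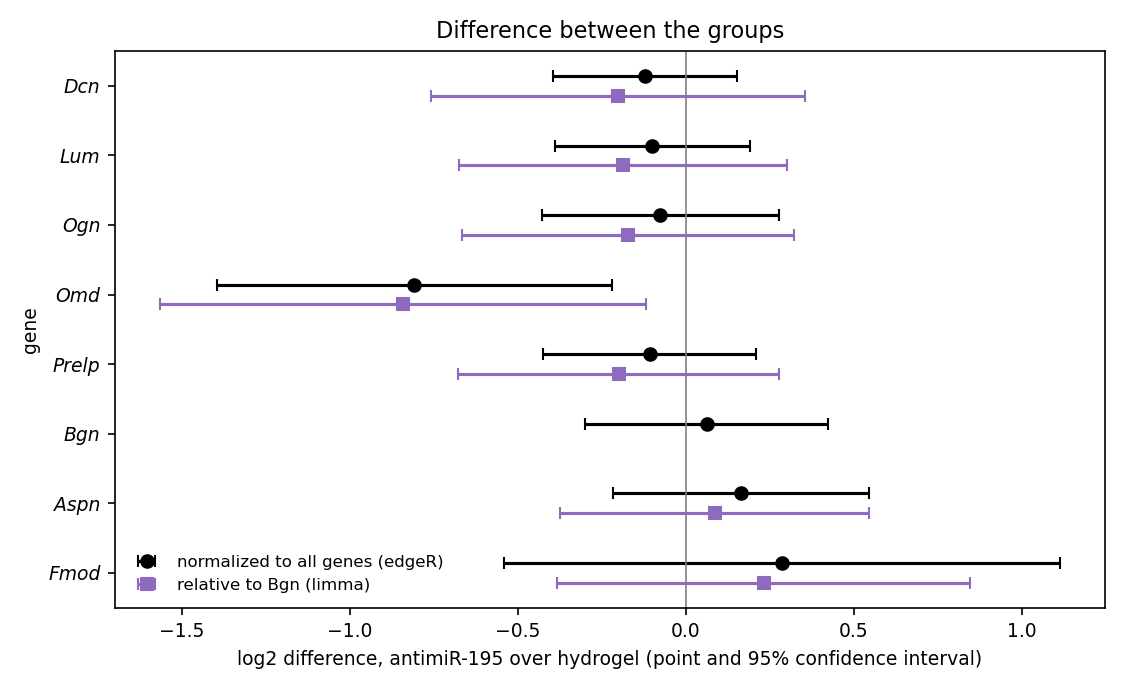
Log2 difference of antimiR-195 over hydrogel with its 95% confidence interval for the 8 transcripts, normalized to all genes (black, edgeR) and relative to Bgn (violet, limma). All intervals except those of Omd include 0, and no difference passed the threshold adjusted over all genes. Intervals relative to Bgn may be too narrow, because all genes there share the Bgn values.

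Promoters of the members matched 6 RefSeq entries (GRCm38.p6, 250 bases before to 50 after the start), those of Bgn, Omd, Ogn, Fmod, Prelp and Aspn. Shown are Bgn and Aspn, the pair with the smallest distance between profiles outside the Dcn, Lum, Ogn and Prelp group, with Ogn from that group and Omd. Capitals mark matches, on either strand, to TATAAA (the core of the TATA box), CCAAT (the box of that name), GGGCGG (known from Sp1), TGANTCA (known from AP-1), CAGACA (known from SMAD proteins) or CATTCC (known from TEAD proteins).
Bgn, chrX:73483351-73483650, plus strand: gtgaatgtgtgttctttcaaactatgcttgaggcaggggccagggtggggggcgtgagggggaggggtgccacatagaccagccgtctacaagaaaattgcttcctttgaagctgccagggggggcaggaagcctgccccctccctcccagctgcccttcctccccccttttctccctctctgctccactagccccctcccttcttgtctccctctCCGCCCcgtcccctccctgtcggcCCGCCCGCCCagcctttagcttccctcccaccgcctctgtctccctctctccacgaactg
Aspn, chr13:49544193-49544492, plus strand: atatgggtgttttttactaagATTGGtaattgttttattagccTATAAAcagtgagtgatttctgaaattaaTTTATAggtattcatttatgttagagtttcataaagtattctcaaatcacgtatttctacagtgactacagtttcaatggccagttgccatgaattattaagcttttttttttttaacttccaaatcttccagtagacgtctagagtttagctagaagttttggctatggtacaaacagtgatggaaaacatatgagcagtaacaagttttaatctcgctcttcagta
Ogn, chr13:49607765-49608064, plus strand: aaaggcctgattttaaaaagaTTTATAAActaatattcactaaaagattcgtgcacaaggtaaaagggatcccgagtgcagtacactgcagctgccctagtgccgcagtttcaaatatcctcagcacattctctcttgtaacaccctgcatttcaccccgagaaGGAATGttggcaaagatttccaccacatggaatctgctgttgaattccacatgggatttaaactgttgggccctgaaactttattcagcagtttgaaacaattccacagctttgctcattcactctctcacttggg
Omd, chr13:49582212-49582511, plus strand: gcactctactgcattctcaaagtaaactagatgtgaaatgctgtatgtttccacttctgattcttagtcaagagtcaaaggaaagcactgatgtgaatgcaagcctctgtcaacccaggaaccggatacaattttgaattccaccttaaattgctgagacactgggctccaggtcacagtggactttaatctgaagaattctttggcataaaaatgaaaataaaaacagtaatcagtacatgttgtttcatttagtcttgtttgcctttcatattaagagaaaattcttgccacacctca

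The Bgn and Aspn windows shared none of these motifs. Bgn was GC-rich at 63.7%, with GGGCGG on the reverse strand at 3 places, the nearest ending 1 base before the start, 2 of them overlapping. Aspn was AT-rich at 31.0% GC, with TATAAA at 2 places and CCAAT at 1, all more than 170 bases before the start. Ogn (42.3% GC) held TATAAA on both strands at overlapping places and CATTCC once, and Omd (37.7% GC) held none of the 6. Over 32851 promoters the median GC was 52.7%, GGGCGG was found in 35.7%, CCAAT in 37.4%, CAGACA in 21.0%, CATTCC in 14.7%, TATAAA in 13.6% and TGANTCA in 7.81%.

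Other members of the family were few. Of 10 listed relatives, 4 passed the count filter. Kera had 0 counts in every library and Epyc and Optc 0 to 4. Podn, a fibroblast and smooth muscle member, measured 19.1 ± 7.69 CPM with antimiR-195 and 22.04 ± 4.00 CPM with hydrogel (SD, n = 4 each), a log2 fold change of -0.21 ± 0.26. Chadl was at -0.29 ± 0.24 and Tsku, a secreted inhibitor of several growth factor pathways, at 0.24 ± 0.16. Positive and negative values were split 2 and 2 with a median of -0.09, beside a median of 0.01 over all genes tested. The median of these relatives was 0.02 without antimiR-195 replicate 2 and 0.09 in limma-voom with quality weights.

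Enzymes that build the sugar chains of Dcn and Bgn gave small differences. Of 24 genes of chondroitin and dermatan sulfate synthesis 22 were tested, 14 positive and 8 negative, with a median of 0.08, and 0 passed. Without antimiR-195 replicate 2 the median was -0.0015. Those of smallest p were the sulfotransferase Chst3 at 0.52 ± 0.25, with 2.10 ± 0.365 against 1.46 ± 0.387 CPM, the linker galactosyltransferase B3galt6 at 0.30 ± 0.18, and Chpf2 at 0.23 ± 0.14. Of 7 genes of keratan sulfate synthesis, the chain type carried by Lum, Fmod and Omd, 5 were tested, 3 positive and 2 negative, with a median of 0.05, and 0 passed. B3gnt7, which extends keratan sulfate chains, measured 0.566 ± 0.106 CPM with antimiR-195 and 1.09 ± 0.411 CPM with hydrogel, a log2 fold change of -0.96 ± 0.33. Its values rest on few reads, 7 to 37 counts per library. The sulfotransferases Chst2 and Chst1 were at 0.60 ± 0.25 and 0.22 ± 0.22.

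Binding partners of the members lay mostly on the positive side. All 13 were tested, 11 positive and 2 negative, with a median of 0.20, and 0 passed. Ccn4, a matricellular protein of the CCN family, was at 0.52 ± 0.28, Tgfb2 at 0.28 ± 0.15 and elastin (Eln) at -0.27 ± 0.13. The median was 0.04 without antimiR-195 replicate 2, 0.05 without hydrogel replicate 3 and 0.36 without hydrogel replicate 4. In limma-voom with quality weights it was 0.06. Among 10 receptors, 6 positive and 4 negative with a median of 0.04, Igf1r was at 0.27 ± 0.17, Met at 0.20 ± 0.22 and P2rx7, with which biglycan can signal to the inflammasome, at -0.25 ± 0.18. Proteases that process or cleave the members, 8 positive and 3 negative of 11 tested with a median of 0.08, included Bmp1, which removes the biglycan propeptide, at 0.24 ± 0.13, Mmp14 at 0.43 ± 0.25 and Mmp9 at 0.40 ± 0.24. In these lists too 0 genes passed. Leaving out single libraries gave medians from -0.03 to 0.05 for the receptors and from -0.01 to 0.15 for the proteases, with negative values without hydrogel replicate 1 for both and without antimiR-195 replicate 3 for the proteases.

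The fibroblast lists had opposite signs. Of 14 identity genes 12 were negative and 2 positive with a median of -0.10, among them Dpep1 at -0.23 ± 0.12 and Scara5 at -0.24 ± 0.18, while Col15a1 was at 0.43 ± 0.20. Of 14 activated fibroblast genes all 14 were positive with a median of 0.34, led by Tnc at 0.72 ± 0.28, Timp1 at 0.78 ± 0.39 and Comp at 0.53 ± 0.27. None of these 28 genes passed. Over all 13972 genes tested, 7326 were positive and 6646 negative. The activated median was 0.20 without antimiR-195 replicate 2, 0.16 without hydrogel replicate 3 and 0.55 without hydrogel replicate 4. In limma-voom with quality weights it was 0.14. The activated list was written with earlier results of these libraries known. The median of the 8 members was -0.09, with 3 positive and 5 negative.

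**Figure D5:**
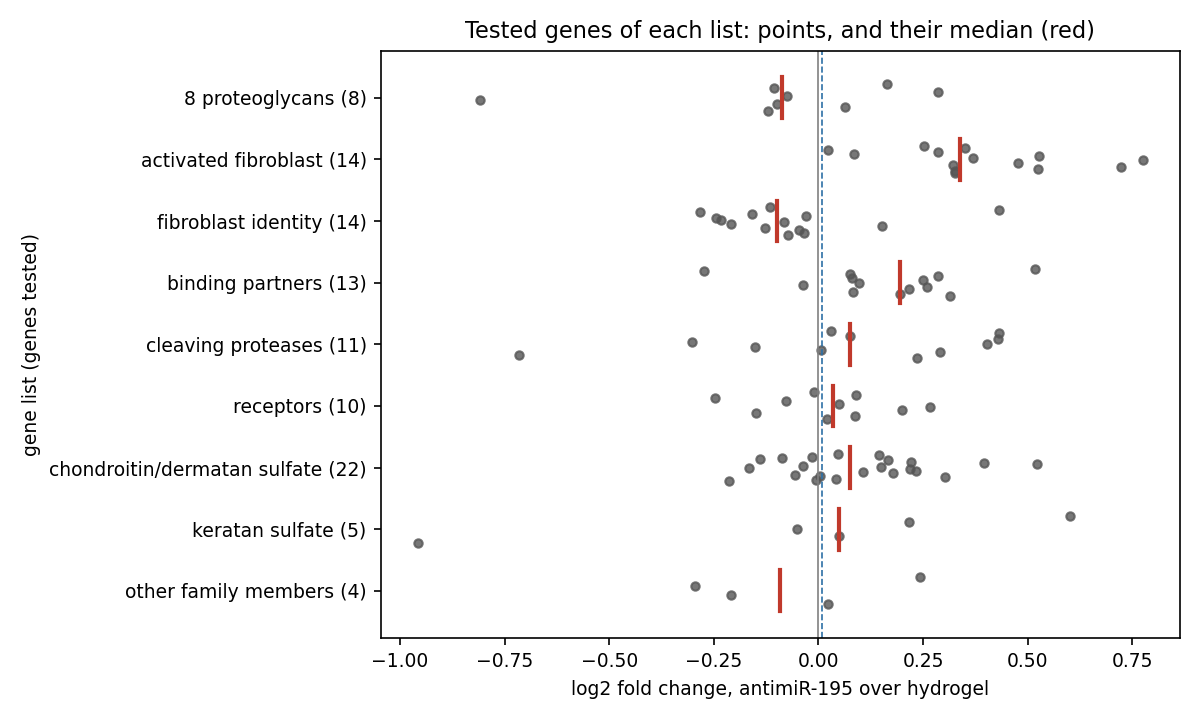
Log2 fold change of antimiR-195 over hydrogel of each tested gene (points) in the members and the lists around them, with the list median in red, 0 as a solid line and the median of all tested genes (0.01) as a dashed line. The 14 activated fibroblast genes all lie above 0, but that list was written with earlier results of these libraries known. Omd is the member farthest from 0, and no gene shown passed the adjusted threshold.

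Markers of other cells were read in the same way, and 0 passed in any list. Medians of the log2 fold changes were 0.03 for 8 cardiomyocyte genes, 0.05 for 7 endothelial, 0.04 for 8 macrophage and 0.00 for 7 mural genes. They were 0.22 for 5 neutrophil, -0.30 for 6 epicardial and mesothelial and 0.31 for 3 tested tendon, valve and cartilage genes. Without antimiR-195 replicate 2 the medians were -0.08 for cardiomyocyte, -0.20 for macrophage, 0.10 for mural, -0.12 for epicardial and mesothelial and 0.17 for tendon, valve and cartilage genes. Without hydrogel replicate 3 the epicardial and mesothelial median was 0.13 and the mural median 0.12. Without antimiR-195 replicate 3 the endothelial median was -0.09. In limma-voom with quality weights the medians were 0.36 for epicardial and mesothelial, -0.12 for macrophage, -0.08 for neutrophil and 0.12 for mural genes. The neutrophil median was -0.18 without antimiR-195 replicate 2, where neutrophil genes summed to 69.1 CPM, against 23.3 to 30.7 CPM in the other antimiR-195 libraries and 26.0 to 31.8 CPM in hydrogel libraries. Macrophage genes were also highest in that library, at 993 CPM, against 569 to 645 CPM in the other antimiR-195 libraries and 610.0 to 831 CPM in hydrogel libraries. In that library Ogn, Lum, Dcn and Omd had their lowest values, and the part of these cells in that was not tested.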

How the data were processed

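Polyadenylated RNA of 8 left ventricle samples was sequenced from TRIzol extracts with a stranded mRNA kit, per the labels' protocols. STAR, HTSeq, DESeq and GRCm38 are named in the submitters' processing notes, without versions. Annotation release and strand setting: not given in the sources used here. As processed files, the authors deposited whole-number counts per Ensembl gene and RPKM values. The counts of the single libraries and of the series table differed in 0 cells. Unassigned HTSeq lines were left out: 6.38% to 7.55% of reads assigned, ambiguous or outside genes lay outside genes and 0.772% to 1.05% were ambiguous, while 42.1% to 47.8% of all alignment records were not unique. Symbols came from GENCODE M21, for 36345 of 38293 identifiers.

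Groups were taken from the drug label, and replicates were numbered in accession order. No label says that the libraries come from separate animals, and p-values therefore reflect library-to-library spread, which may be technical. Counts were filtered with filterByExpr, scaled with TMM (factors 0.953 to 1.04) and tested with edgeR 4.0.16 (quasi-likelihood, robust) in R 4.3.3, two-sided, with Benjamini-Hochberg adjustment over all 13972 genes and a threshold of 0.05. The biological coefficient of variation was 19.1%. Ratios to Bgn were tested with limma 3.58.1 on log2 CPM (prior count 2) over 13971 genes. Ratios and levels between genes used RPKM, with no test. Alternatives were other scalings, no filter, DESeq2 1.42.0, limma-voom, log2 RPKM and leaving out each library. The members and lists were chosen with earlier results of these data known. Genes named are the 8 members, the 3 of smallest p in each list (for other cell markers, the list as a whole) and the 3 most similar profiles per member; further list genes were named after their values were seen.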

Additional observations from a re-analysis of the deposited data

Results flagged for a closer look

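Among 32 sets of 4 values (CPM and ratios to Bgn, by group), 2 had 1 library far from the other 3, and chance alone would pick out about 1 in 20. Bgn was at 508 CPM in antimiR-195 replicate 1, where the other antimiR-195 libraries lay between 593 and 606 CPM. The Ogn over Bgn ratio was 0.222 in antimiR-195 replicate 2, where the other antimiR-195 libraries lay between 0.336 and 0.344.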

How the results depend on the processing

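No paired analysis was possible because the replicate numbers follow accession order and pair nothing across the groups. Over 197 recomputed member differences, 4 changed sign and 0 passed the adjusted threshold. The sign changes were Bgn at -0.043 without hydrogel replicate 3, Ogn at 0.032 without antimiR-195 replicate 2, and Lum at 0.031 and Ogn at 0.065 in limma-voom with quality weights. Leaving out single libraries gave -0.04 to 0.21 for Bgn and -0.16 to 0.03 for Ogn. Omd was negative in each of 15 alternatives, from -0.98 to -0.33, the smallest on log2(RPKM + 1), with unadjusted p from 0.00332 to 0.0355 and adjusted p of at least 0.895. In all 15 alternatives 0 genes were called, with 104 to 403 genes at an unadjusted p below 0.05 (193 in DESeq2, 333 in limma-voom). Relative to Bgn, leaving out single libraries gave 0 to 3 called genes, none of them a member: 3 without antimiR-195 replicate 3, 2 without antimiR-195 replicate 2 and 1 without hydrogel replicate 1. The unadjusted p of Omd relative to Bgn ran from 0.00702 to 0.0757 and its difference from -1.04 to -0.69. These p-values may be too small, because all genes in such a fit share the Bgn values. The log2 difference of the summed ratio ranged from -0.34 to -0.03. Counts of 11 to 33 for Omd and 28 to 77 for Fmod limit both.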
